A study of Macaca mulatta with 24 samples.

Results

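The comparison described here is that of low drinkers (LD) with controls in the nucleus accumbens core (NAcc) of rhesus macaques, chosen from the consumption category in the sample labels. It used 16 of the 24 animals, 8 LD animals and 8 controls, each with a single RNA-Seq library. All were unrelated adult males. LD animals had been trained to drink on a food-delivery schedule (schedule-induced polydipsia) and then had 12 months of open access to 4% ethanol and water for 22 h a day, and tissue was taken without an enforced abstinence. Their average intake was 1.58 ± 0.53 g/kg per day (SD, n = 8; lowest 0.47, median 1.82, highest 2.07). Controls went through the same schedule in the same rooms with water on both spouts and received a 10% maltose dextrin solution to match the calories. The LD group joins the study's light and binge drinkers, so it spans more than 1 drinking pattern. The other 8 animals, heavy and very heavy drinkers (HD), entered the statistical model and are given only beside the LD values. Controls came from cohorts 5 (3 animals), 7a (2) and 7b (3), and LD animals from cohorts 4 (2), 7a (3) and 7b (3), so only cohorts 7a and 7b held both groups. The cohort 4 animals were the older animals of the study, and for them age, cohort and drinking cannot be told apart.

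The NAcc is the ventral part of the striatum and a main target of midbrain dopamine neurons, and its role in reward and in alcohol seeking is well known. Most of its neurons are GABAergic medium spiny neurons, marked by dopamine receptors, PPP1R1B (DARPP-32) and the peptides PENK, PDYN and TAC1. A small dissection also carries glia, myelin and blood vessels. Vessel walls hold endothelial cells, which form the blood-brain barrier, and mural cells, the smooth muscle and pericytes that contract around them. In such bulk samples fewer cells of a type and less RNA per cell cannot be told apart.

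Values are TPM, the abundance of a gene's transcripts corrected for gene length and scaled to the same total in every library, and differences are LD minus control on the log2(TPM + 1) scale, on which the change of weakly expressed genes is understated. The markers of medium spiny neurons were abundant in 7 of 8 controls and in all 8 LD animals. Control 6, of cohort 7b, stood apart from the others. It had 8.14 TPM of DRD1 (other controls 53.4 to 274, LD animals 74.6 to 203) and 304 TPM of PPP1R1B (other controls 1109 to 3926). Its summed level of oligodendrocyte and myelin genes was the highest of the 16 libraries at 13622 TPM (other controls 3750.3 to 8120.3), as was CALB2 at 309 TPM (other controls 27.9 to 86.6). Its median correlation with the other libraries was 0.878, against a range of 0.930 to 0.974 in the other controls and 0.942 to 0.978 in LD animals. SLC17A7, the vesicular glutamate transporter of cortical neurons, varied from 0.897 to 348 TPM in controls and from 0.939 to 722 TPM in LD animals, with 3 controls and 4 LD animals above 20 TPM and the others below 4 TPM. Values without Control 6 are given beside the results it bears on most.

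No gene passed the correction for multiple tests between LD animals and controls. Of 9197 genes that averaged 10 TPM or more over 24 animals, limma called 0 (0%) at an adjusted p under 0.05, and the smallest adjusted p was 1.00. Unadjusted p was under 0.05 for 164 genes (1.78%), of which 141 were lower (1.53%) and 23 were higher (0.25%) in LD animals. In 0 genes (0%) did the 8 LD animals and the 8 controls fail to overlap. Means were lower in LD for 4753 genes (51.7%) and higher for 4444 (48.3%), and the median difference over all genes was -0.0045. The uneven split at unadjusted p depended on scaling, since 14.0% of these genes were higher with TPM as deposited, 62.0% after TMM rescaling and 49.2% after median centring. The median standard error was 0.151 and the median 95% interval reached 0.312 to either side. For a typical gene with 8 animals a group, smaller differences thus did not reach an unadjusted p of 0.05 in limma. To pass the correction for multiple tests, differences had to be larger still.

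**Figure D1:**
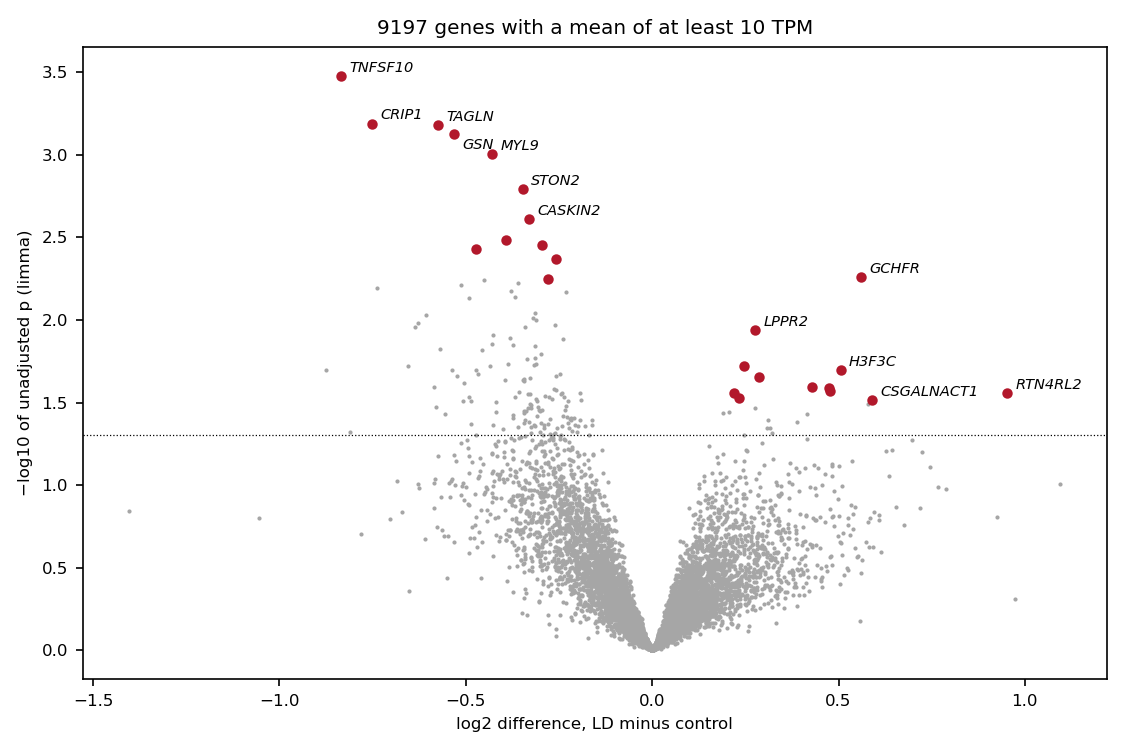
Each point is 1 of the 9197 genes tested, with the log2 difference (LD minus control) on the x axis and -log10 of the unadjusted limma p on the y axis. Red points are the 12 genes higher and the 12 lower with the smallest p, the dotted line marks an unadjusted p of 0.05, and 141 genes lie above it on the lower side against 23 on the higher side.

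The 12 genes with the smallest p among those lower in LD animals included TNFSF10, CRIP1, TAGLN, GSN and MYL9. They were chosen by this p, so their values are a description, and the exact permutation p given for each (2-sided, over the 12870 assignments of 8 against 8 animals) is that of the gene alone and takes no account of the choice among 9197 genes. Limma gave each an adjusted p of 1.00.

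TNFSF10 encodes TRAIL, a ligand of death receptors. It ranged from 18.2 to 32.4 TPM in the controls (median 22.4) and from 10.5 to 24.5 TPM in the LD animals (median 12.3), and 7 of 8 LD animals lay below every control, the exception being LD 4. Means were 25.1 ± 5.91 TPM in controls and 13.8 ± 4.502 TPM in LD animals (SD, n = 8 each), a log2 difference of -0.83 ± 0.20 (SE) (exact p = 0.000932). CRIP1, a small LIM domain protein, ranged from 16.3 to 51.5 TPM in the controls (median 25.2) and from 10.8 to 23.2 TPM in the LD animals (median 14.2). Again 7 of 8 LD animals were below every control, here with LD 6 as the exception, and the log2 difference was -0.75 ± 0.19 (SE) (exact p = 0.00171). Over all 9197 genes tested, at least 7 LD animals lay below every control in 9 genes and above every control in 1. At least 6 lay below in 42 genes and above in 13. How many such genes chance alone would give was not tested.

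A pair of contractile genes of smooth muscle followed. TAGLN (transgelin or SM22), an actin-binding protein of smooth muscle, ranged from 27.1 to 48.6 TPM in the controls (median 39.6) and from 19.7 to 31.99 TPM in the LD animals (median 24.5), with 4 LD animals below every control and a log2 difference of -0.58 ± 0.15 (SE) (exact p = 0.00435). MYL9, the regulatory light chain of smooth muscle myosin, ranged from 26.4 to 44.8 TPM in the controls (median 32.5) and from 17.4 to 29.5 TPM in the LD animals (median 24.8). All LD animals except LD 6 were below the lowest control, and the difference was -0.43 ± 0.12 (SE) (exact p = 0.00249). Without Control 6 the differences were -0.64 for TAGLN and -0.36 for MYL9.

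Proteins that act on actin or tie it to the membrane were also among the 12. GSN (gelsolin), which cuts and caps actin filaments, ranged from 91.3 to 260.3 TPM in the controls (median 141) and from 86.6 to 127 TPM in the LD animals (median 96.4), with LD values packed near 100 TPM and Control 6 far above the rest. Its difference was -0.53 ± 0.14 (SE) (exact p = 0.00435) and -0.41 without Control 6. MSN (moesin), which links actin to the plasma membrane, averaged 74.3 ± 7.53 TPM in controls and 62.04 ± 6.57 TPM in LD animals, and 6 LD animals were below every control (difference -0.26 ± 0.082 (SE), -0.21 without Control 6, exact p = 0.00171). EPB41L2, a membrane skeleton protein of the band 4.1 family, averaged 127 ± 7.84 TPM in controls and 104 ± 18.6 TPM in LD animals and also had 6 LD animals below every control. RCSD1, which binds actin capping protein, averaged 16.2 ± 3.11 TPM in controls and 12.04 ± 1.67 TPM in LD animals. Outside this actin group, CASKIN2, a scaffold with ankyrin repeats and SH3 domain, averaged 56.1 ± 10.3 TPM in controls and 44.1 ± 5.096 TPM in LD animals. For these last 3 genes the log2 differences were -0.30, -0.39 and -0.33 (exact p = 0.00777, 0.00513 and 0.00808).

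The remaining 3 of the 12 had other roles. IFITM1, an interferon-induced membrane protein that restricts virus entry, ranged from 32.01 to 44.3 TPM in the controls (median 37.4) and from 17.2 to 34.02 TPM in the LD animals (median 26.9), with 6 LD animals below every control and a difference of -0.47 ± 0.15 (SE) (exact p = 0.00124). STON2 (stonin 2), an adaptor for synaptic vesicle endocytosis, averaged 21.9 ± 3.91 TPM in controls and 16.8 ± 1.17 TPM in LD animals (difference -0.35, exact p = 0.00575), and no LD animal lay below the lowest control. CHKA, choline kinase alpha of phosphatidylcholine synthesis, averaged 29.6 ± 3.92 TPM in controls and 24.2 ± 2.81 TPM in LD animals (difference -0.28, exact p = 0.00746). LD 4 was the highest LD animal in 6 of the 12 genes, and Control 6 the highest control in 6 and the lowest in 3. Without Control 6 all 12 differences kept their sign, between -0.89 and -0.21, and after TMM rescaling they lay between -0.79 and -0.21.

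**Figure D2:**
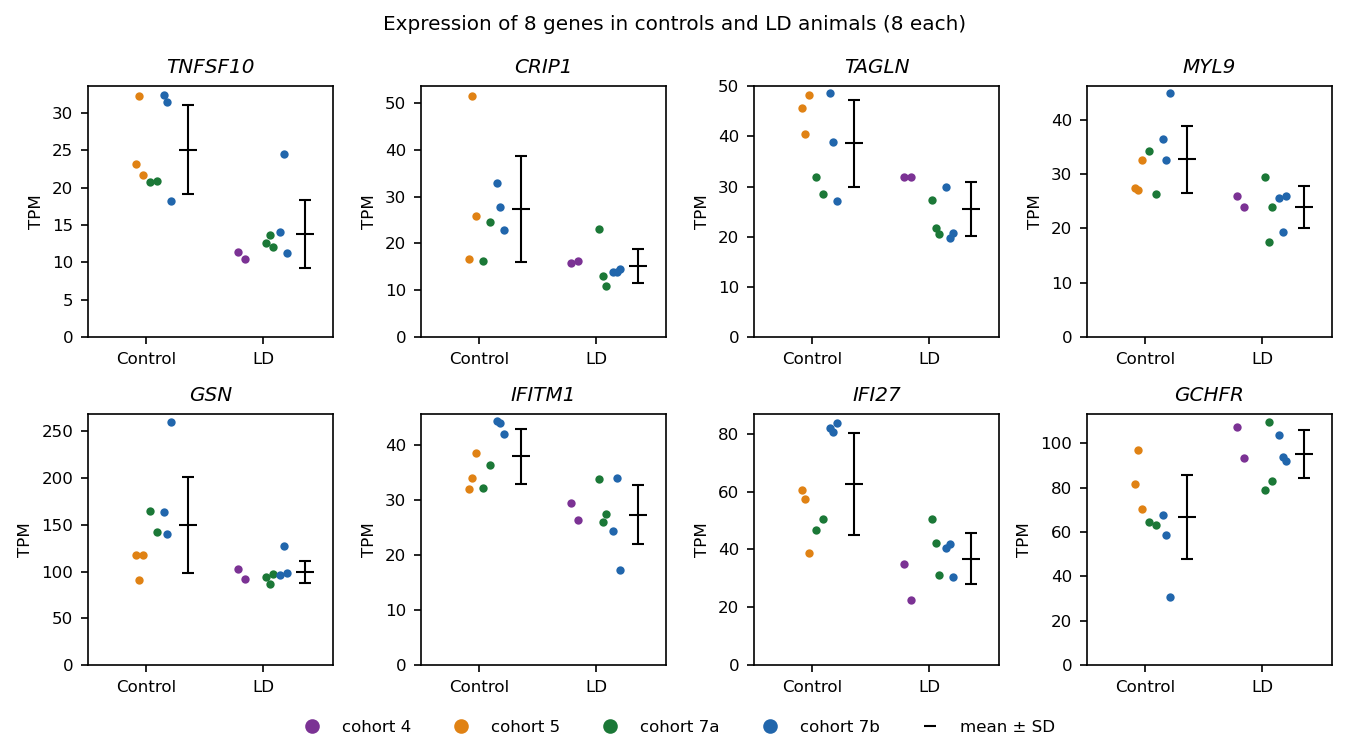
TPM of 8 genes (y axis, from 0) in each control and LD animal (x axis), with points coloured by cohort and black marks for the mean ± SD of 8 animals. For TNFSF10, CRIP1 and MYL9, 7 of 8 LD animals lie below the lowest control, and for GCHFR all LD animals lie above 79 TPM while Control 6 is at 30.6 TPM. Of all 9197 genes tested, 9 have at least 7 LD animals below the lowest control.

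On the higher side, Control 6 was the lowest control in 8 of the 12 genes. GCHFR, the feedback regulator of GTP cyclohydrolase I (the first enzyme of the synthesis of tetrahydrobiopterin, a cofactor for making dopamine), had the smallest p. It ranged from 30.6 to 96.8 TPM in the controls (median 66.2) and from 79.1 to 109 TPM in the LD animals (median 93.5), with 3 LD animals above every control. Its difference was 0.56 ± 0.18 (SE) (exact p = 0.00233), and 0.41 without Control 6. CSGALNACT1, an enzyme that starts chondroitin sulfate chains, ranged from 12.1 to 38.00 TPM in the controls (median 32.2) and from 18.2 to 62.1 TPM in the LD animals (median 49.04). Here 7 of 8 LD animals were above every control, LD 5 being the exception (difference 0.59 ± 0.26 (SE), 0.42 without Control 6, exact p = 0.02999). At least 7 LD animals lay above every control in 1 of the 9197 genes tested, which was CSGALNACT1. RTN4RL2, a Nogo receptor relative on axons, had the largest of the 12 differences at 0.95 ± 0.41 (SE), but LD values ran from 6.34 to 44.8 TPM and only 2 lay above every control (exact p = 0.0395).

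The others covered several functions, and 1 of the 12 is not described here. CNIH3 (cornichon 3), an auxiliary subunit of AMPA receptors, averaged 9.22 ± 2.64 TPM in controls and 13.1 ± 5.12 TPM in LD animals. THRA, thyroid hormone receptor alpha, averaged 580.5 ± 95.7 TPM in controls and 677 ± 65.9 TPM in LD animals, and GFRA4, a receptor subunit for persephin, averaged 28.3 ± 9.14 TPM in controls and 39.2 ± 11.3 TPM in LD animals. FKBP1B, which binds ryanodine receptors, averaged 99.1 ± 11.7 TPM in controls and 116 ± 12.1 TPM in LD animals. OXSM, of mitochondrial fatty acid synthesis, averaged 16.7 ± 3.44 TPM in controls and 20.3 ± 1.301 TPM in LD animals. FASTK averaged 60.7 ± 8.19 TPM in controls and 72.05 ± 8.64 TPM in LD animals, LPPR2 203 ± 28.9 TPM in controls and 246 ± 31.9 TPM in LD animals, and the histone gene H3F3C, which could share reads with near-identical H3.3 copies, 13.4 ± 3.31 TPM in controls and 20.4 ± 9.77 TPM in LD animals. Exact p over the 12 ran from 0.00233 to 0.0612. Without Control 6 the differences ran from 0.17 to 0.81, and after TMM rescaling from 0.27 to 0.99.

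Only cohorts 7a (3 LD animals, 2 controls) and 7b (3 LD animals, 3 controls) allow LD animals to be compared with controls of their own cohort. The 12 lower genes were lower in both cohorts. TNFSF10 differed by -0.66 in 7a and -0.72 in 7b, and GSN by -0.72 and -0.77. Differences for CRIP1 were -0.40 and -0.92, for TAGLN -0.38 and -0.66, for IFITM1 -0.24 and -0.81, and for CHKA -0.10 and -0.55. Of the 12 higher genes, 11 were higher in both, the exception being H3F3C at 0.55 in 7a and -0.042 in 7b. These cohorts supplied 6 of the 8 LD animals that chose the genes, so the shared sign is not an independent check. An exact permutation within the cohorts (200 assignments, smallest possible p 0.005) gave p from 0.005 to 0.09 for the lower and from 0.005 to 0.34 for the higher genes. GSN, GCHFR and, outside the 24, the endothelial gene ENG and the interferon-stimulated gene OAS2 reached that smallest exact p of 0.005. Each of them had been named for a small limma p that used the same animals. The share of all genes that reach 0.005 was not computed.

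**Figure D3:**
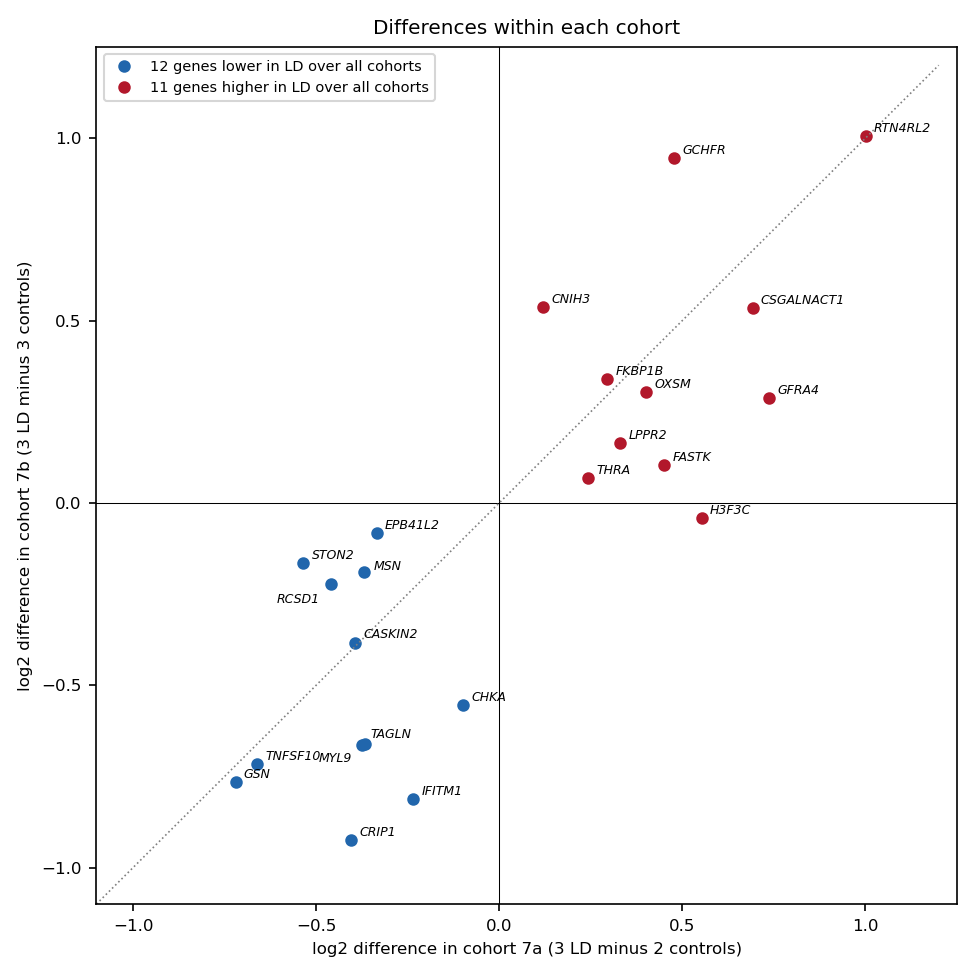
Log2 difference (LD minus control) of 23 of the 24 genes in cohort 7a (x axis, 3 LD animals and 2 controls) against cohort 7b (y axis, 3 and 3). The 12 lower genes (blue) lie in the lower left quadrant, and 10 of the 11 higher genes plotted (red) in the upper right, with H3F3C just below 0 in cohort 7b.

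No gene passed the correction for a difference of the LD effect between cohorts 7a and 7b. In limma's interaction fit 0 of 9197 genes had an adjusted p under 0.05 (smallest adjusted p 0.257), and 175 (1.90%) had an unadjusted p under 0.05. The median of the difference between cohorts (7b minus 7a) was -0.17 with TPM as deposited and 0.0018 after TMM rescaling.

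In the HD animals, compared with the same 8 controls, 11 of the 12 lower genes had a negative difference and STON2 a difference of 0.060. Both comparisons share their controls, so a like sign is not independent. TNFSF10 averaged 25.1 ± 5.91 TPM in controls, 13.8 ± 4.502 TPM in LD animals and 18.9 ± 5.94 TPM in HD animals. TAGLN averaged 38.7 ± 8.65, 25.5 ± 5.35 and 31.7 ± 6.81 TPM in the same order, and IFI27, an interferon-induced gene, 62.6 ± 17.6, 36.8 ± 8.82 and 60.9 ± 30.3 TPM. LD means of these genes were thus the lowest of the groups, with HD means between LD and controls, for IFI27 near the control mean. These genes were named for a small p in LD against control, so the choice itself favours an extreme LD mean. On the log2 scale HD minus LD ran from -0.023 to 0.41 over the 12 lower genes. Over the 12 higher genes it ran from -0.70 to -0.013. MSN, at 61.01 ± 6.37 TPM, and EPB41L2, at 107 ± 9.58 TPM in HD animals, were near their LD means. All 12 higher genes averaged higher in HD animals than in controls as well, by 0.036 to 0.53. Directly compared, HD and LD animals differed in 0 genes at an adjusted p under 0.05 (limma), and in 67 at an unadjusted p under 0.05 (0.728% of 9197). HD animals and controls also differed in 0 genes at an adjusted p under 0.05 (limma, smallest adjusted p 0.806). The paper, which tested counts with DESeq2, reported genes at an FDR under 0.05 for both comparisons and none for LD against controls. The limma fit on TPM thus called none of the genes called there, and the reason was not tested.

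Genes of blood vessels averaged lower in LD animals across the list. Lists of genes were written by cell type and pathway, and they are described by the count and median of their tested members, beside 51.7% of all genes lower and a median of -0.0045 over all genes. Of 9 tested endothelial genes 9 averaged lower, with a list median of -0.26, and 4 had an unadjusted p under 0.05 (background 1.53%). CLDN5, the main tight junction protein of the blood-brain barrier, ranged from 44.6 to 74.3 TPM in the controls (median 56.6) and from 33.7 to 53.4 TPM in the LD animals (median 47.4) (difference -0.33 ± 0.14 (SE), exact p = 0.00963). ENG (endoglin), a co-receptor for TGF-beta, averaged 24.8 ± 3.96 TPM in controls and 19.6 ± 4.12 TPM in LD animals (difference -0.34 ± 0.14 (SE), exact p = 0.0224). The efflux transporter ABCG2 averaged 22.2 ± 5.12 TPM in controls and 16.9 ± 4.03 TPM in LD animals, and MFSD2A, which carries lysophosphatidylcholine with docosahexaenoic acid, 23.2 ± 3.99 TPM in controls and 18.4 ± 3.49 TPM in LD animals. SLC2A1, the glucose transporter of the barrier and the most abundant gene of the list, averaged 104 ± 14.8 TPM in controls and 92.9 ± 14.2 TPM in LD animals (exact p = 0.191). All 9 genes averaged lower in cohort 7a and in cohort 7b, with medians of -0.21 and -0.35.

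Of 10 tested mural cell genes 8 averaged lower, with a median of -0.20. TAGLN and MYL9, both of the 12 chosen by p, were the 2 at an unadjusted p under 0.05 (background 1.53%). TPM2, a smooth muscle tropomyosin, averaged 39.5 ± 8.64 TPM in controls and 32.4 ± 6.34 TPM in LD animals, MYLK, the kinase of myosin light chains, 16.8 ± 3.74 TPM in controls and 14.3 ± 5.67 TPM in LD animals, and PDGFRB, the pericyte receptor for PDGF, 18.1 ± 2.84 TPM in controls and 16.1 ± 3.56 TPM in LD animals. RGS5, a pericyte marker and the highest of the list, averaged 53.5 ± 10.4 TPM in controls and 48.8 ± 16.7 TPM in LD animals (exact p = 0.391), and the groups overlapped. CALD1 (25.2 ± 3.22 TPM in controls and 25.3 ± 2.74 TPM in LD animals) and HIGD1B (17.1 ± 3.65 TPM in controls and 18.2 ± 4.37 TPM in LD animals) had means higher by 0.0072 and 0.080 on the log2 scale. The summed level of the list ran from 257 to 332 TPM in controls (median 298) and from 204 to 299 TPM in LD animals (median 252), so the groups overlapped.

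Both vessel lists were little altered by the library that stood apart. Without Control 6 the medians were -0.28 for endothelial and -0.26 for mural genes, and omission of any 1 of the 16 animals gave -0.32 to -0.22 and -0.26 to -0.17. Of the 9 endothelial genes 3 had an unadjusted p under 0.05 without Control 6 (background 0.902%), 1 without the 3 animals least like the rest, Control 6, Control 8 and LD 5 (1.37%), and 2 with marker covariates (1.19%). With the mean levels of the medium spiny neuron and oligodendrocyte lists as covariates the list medians were -0.26 for endothelial and -0.19 for mural genes. Genes of fibroblasts and meninges had a median of -0.20 (8 of 8 lower, 0 at an unadjusted p under 0.05), which was -0.24 without Control 6 and -0.081 without the 3 animals least like the rest. MGP, an extracellular matrix protein, averaged 22.8 ± 11.5 TPM in controls and 15.4 ± 8.504 TPM in LD animals, S100A6, a calcium-binding protein, 148 ± 117 TPM in controls and 85.6 ± 32.8 TPM in LD animals, and VIM (vimentin) 199 ± 94.8 TPM in controls and 173 ± 62.2 TPM in LD animals, with wide spreads in both groups.

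Of 18 interferon-stimulated genes tested, of 49 on the list, 17 averaged lower in LD animals, with a median of -0.26. An unadjusted p was under 0.05 in 3, all lower (background 1.53%), 1 of them IFITM1 of the 12 chosen by p. Besides IFITM1, these were IFI27, which ranged from 38.8 to 83.9 TPM in the controls (median 58.99) and from 22.4 to 50.7 TPM in the LD animals (median 37.8) (difference -0.74 ± 0.25 (SE), exact p = 0.00202), and IFI35, at 14.9 ± 2.99 TPM in controls and 11.7 ± 1.53 TPM in LD animals. IFI27 was between 80.8 and 83.9 TPM in the 3 controls of cohort 7b and no higher than 60.5 TPM in the others, and its difference was -0.26 in cohort 7a and -1.12 in cohort 7b. MX1, an antiviral GTPase, averaged 23.1 ± 13.9 TPM in controls and 15.7 ± 7.19 TPM in LD animals. The list median was -0.19 without Control 6, -0.13 with the marker covariates and -0.26 and -0.40 in cohorts 7a and 7b. Microglial genes had a median of -0.17 (14 of 15 lower, 0 at an unadjusted p under 0.05), and -0.072 with the marker covariates, so both lists had smaller medians once these markers were in the model.

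Among genes of at least 10 TPM, no other gene of the pathway around TNFSF10 passed an unadjusted p of 0.05 in limma with all animals. Of 12 tested genes of death receptor signalling 9 averaged lower with a median of -0.083. Without Control 6 (background 0.902%) or without the 3 animals least like the rest (1.37%), 2 genes passed, TNFSF10 and CFLAR. CFLAR, an inhibitor of caspase-8, averaged 14.7 ± 4.26 TPM in controls and 11.8 ± 2.78 TPM in LD animals (exact p = 0.148), the receptor TNFRSF1A 31.99 ± 9.26 TPM in controls and 27.7 ± 5.92 TPM in LD animals, and the adaptors FADD and TRADD 12.6 and 32.7 TPM in LD animals against 11.7 and 31.5 TPM in controls. The TRAIL receptors TNFRSF10A and TNFRSF10B were near 1 TPM in both groups. In the NF-kappaB list 12 of 13 averaged lower (median -0.13, -0.091 without Control 6). Its 1 gene at an unadjusted p under 0.05 in limma was NFKBIB (background 1.53%), and 0 were without Control 6. NFKBIB, an inhibitor of NF-kappaB, averaged 21.6 ± 3.05 TPM in controls and 18.7 ± 1.32 TPM in LD animals (exact p = 0.0171), and the kinase IKBKB 24.98 ± 2.41 TPM in controls and 21.8 ± 1.304 TPM in LD animals (exact p = 0.00932).

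The genes of the actin cytoskeleton list were split, but its lowest difference was -0.35, so TAGLN, MYL9, CRIP1 and GSN are not among them. Of 30 tested genes 16 averaged lower and 14 higher, with a median of -0.010 (0.038 after TMM rescaling). Of these, 2 were lower and 0 higher at an unadjusted p under 0.05 in limma (background 1.53% and 0.25%). TLN1 (talin), which couples integrins to actin, averaged 51.8 ± 11.1 TPM in controls and 43.2 ± 4.699 TPM in LD animals (exact p = 0.04398), and -0.16 was its difference without Control 6. The LIM domain list was split 13 to 13 with a median of -0.00053 (0.047 after TMM rescaling). CRIP1, of the 12 chosen by p, was the only member at an unadjusted p under 0.05 (background 1.53%). LMO2, next, averaged 63.4 ± 11.8 TPM in controls and 52.4 ± 9.04 TPM in LD animals (exact p = 0.0536).

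Myelin genes averaged lower in LD animals without exception, but with large overlap. All 20 had a negative difference (median -0.45) and 0 had an unadjusted p under 0.05. MBP (myelin basic protein), which compacts the sheath, ran from 288 to 1497 TPM in controls and from 209 to 1801 TPM in LD animals, so the groups overlapped widely. The summed level of the list ran from 3750.3 to 13622 TPM in controls, with Control 6 highest, and from 2492 to 9002 TPM in LD animals. Without Control 6 the list median was -0.26. Without the 3 animals least like the rest it was -0.43, and 5 of 20, among them MOBP, OPALIN, MAL and ERMN, were lower at an unadjusted p under 0.05 (background 1.37%). In the precursor list 6 of 6 averaged lower (median -0.15, -0.090 without Control 6). GPR17, a receptor of maturing oligodendrocyte precursors, was the one with an unadjusted p under 0.05, at 36.2 ± 9.01 TPM in controls and 26.2 ± 4.62 TPM in LD animals (difference -0.43 ± 0.16 (SE), exact p = 0.0107), a call that was lost with the marker covariates. OLIG1 averaged 153 ± 68.7 TPM in controls and 119 ± 22.3 TPM in LD animals (difference -0.29, -0.13 without Control 6).

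All 18 astrocyte genes averaged lower in LD animals (median -0.18, -0.15 without Control 6), and 2 had an unadjusted p under 0.05 in limma (background 1.53%). Of these genes 0 had one without Control 6, 0 with the marker covariates, and 1, SLC1A2, without the 3 animals least like the rest. SOX9, a transcription factor of astrocytes, ranged from 38.5 to 48.1 TPM in the controls (median 41.05) and from 24.4 to 43.8 TPM in the LD animals (median 33.97), and 5 LD animals were below every control (difference -0.30 ± 0.14 (SE), exact p = 0.01601). GJB6, the astrocytic connexin 30, averaged 92.5 ± 32.8 TPM in controls and 67.6 ± 21.3 TPM in LD animals (exact p = 0.0881). APOE, the most abundant of the list, averaged 4366 ± 1619 TPM in controls and 3593 ± 720.01 TPM in LD animals (exact p = 0.268), and GFAP 2520.4 ± 1928 TPM in controls and 1734 ± 1073 TPM in LD animals. The list median without those 3 animals was -0.062. CD74, C1QA and C1QB of microglia averaged 114, 62.8 and 119 TPM in LD animals against 158, 81.9 and 147 TPM in controls, with exact p of 0.209, 0.231 and 0.335.

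**Figure D4:**
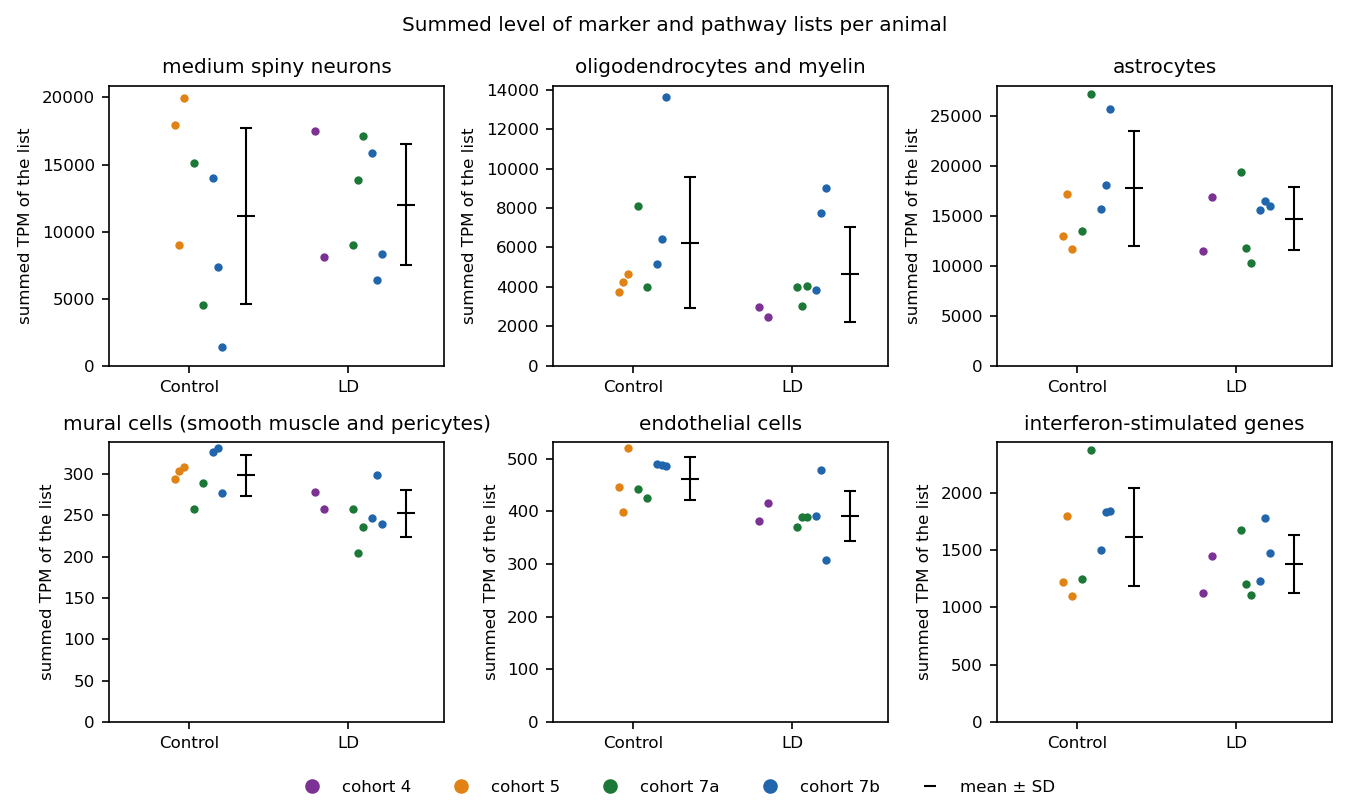
Summed TPM of 6 gene lists (y axis, from 0) in each control and LD animal, with points coloured by cohort and black marks for the mean ± SD of 8 animals. Control 6 is the lowest point for medium spiny neurons (1416 TPM) and the highest for oligodendrocytes (13622 TPM) but lies among the other controls for mural and endothelial genes.

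Genes of medium spiny neurons averaged higher in LD animals with all animals, but the sign of their median depended on Control 6. With all animals 22 of 23 had a positive difference and the median was 0.34, with 0 at an unadjusted p under 0.05. Without Control 6 the median was -0.021, and without the 3 animals least like the rest -0.13, with 0 higher at an unadjusted p under 0.05 in that fit (background 0.402%). Within cohorts the median was 0.53 in cohort 7a, which does not hold Control 6 (22 of 23 higher, 3 LD animals against 2 controls), and 0.83 in cohort 7b, which does. However, 1 of the 2 controls of cohort 7a is Control 8, also among the 3 animals least like the rest. Its summed level was 4558 TPM, against 15105 TPM in Control 7. The summed level was 1416 TPM in Control 6, 4558 to 19931 in the other controls and 6355 to 17483 in LD animals. PENK, the precursor of enkephalins, averaged 2481 ± 1536 TPM in controls and 2637 ± 1241 TPM in LD animals, a difference of 0.38 ± 0.46 (SE) that was -0.016 without Control 6 (exact p with all animals 0.534). PDYN, the precursor of dynorphins, averaged 477 ± 279 TPM in controls and 635 ± 277 TPM in LD animals (difference 0.72 ± 0.47 (SE), 0.25 without Control 6, exact p = 0.265). DRD1, DRD2 and the adenosine receptor ADORA2A differed by 0.46, 0.39 and 0.52 with all animals and by -0.039, 0.12 and -0.014 without Control 6.

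The lists that share these genes followed. The dopamine list had a median of 0.21 (5 of 6 higher) and 0.053 without Control 6, and DRD3 averaged 45.03 ± 25.5 TPM in controls and 56.7 ± 22.7 TPM in LD animals (difference 0.53, 0.18 without Control 6, exact p = 0.287). MAOB, a dopamine-degrading enzyme, averaged 231 ± 16.98 TPM in controls and 240.5 ± 53.2 TPM in LD animals. The opioid list had a median of 0.33, and 0.094 without Control 6, and its receptor OPRL1 (for nociceptin) averaged 46.7 ± 11.9 TPM in controls and 55.9 ± 21.1 TPM in LD animals. GPR6, an orphan receptor of the indirect pathway, averaged 118 ± 78.7 TPM in controls and 139.8 ± 59.7 TPM in LD animals. Interneuron genes had a median of -0.081 (5 of 11 higher): SST (somatostatin) averaged 687 ± 159 TPM in controls and 795 ± 249 TPM in LD animals, TRH 12.5 ± 7.73 TPM in controls and 8.46 ± 5.02 TPM in LD animals, and CALB2 (calretinin) 84.8 ± 92.7 TPM in controls and 44.3 ± 20.4 TPM in LD animals, a difference of -0.57 that was -0.24 without Control 6.

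Genes of cortical and other projection neurons varied widely between animals of both groups. Of 15 on the list 4 were tested, all 4 higher on average (median 0.45), but the median was -0.51 in cohort 7a and 1.35 in cohort 7b. SLC17A7 differed by 0.97 ± 1.39 (SE) (exact p = 0.553), and LD 4 alone had 722 TPM. SV2B averaged 35.6 ± 24.8 TPM in controls and 45.5 ± 25.04 TPM in LD animals and LHX2 52.4 ± 22.8 TPM in controls and 57.7 ± 14.3 TPM in LD animals, with Control 6 lowest in both. Without it their differences went from 0.56 to 0.27 and from 0.33 to -0.027. Lymphocyte and blood genes had 3 of 16 tested (median 0.23, -0.071 without Control 6), and CD3E averaged 19.6 ± 11.96 TPM in controls and 24.3 ± 13.3 TPM in LD animals and the lysozyme gene LYZ 12.03 ± 3.19 TPM in controls and 11.5 ± 3.997 TPM in LD animals. Of the ependyma and choroid plexus list, 2 of 12 were tested (median -0.030, 0.016 after TMM rescaling), AQP1 at 43.3 ± 25.1 TPM in controls and 47.6 ± 25.9 TPM in LD animals and RSPH1 at 11.8 ± 6.29 TPM in controls and 9.37 ± 3.59 TPM in LD animals. The exact p of these 7 genes (SLC17A7 included) lay between 0.344 and 0.7100.

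Most lists of synaptic genes had small positive medians, with 0 members of any of these lists at an unadjusted p under 0.05 (limma, all animals). Among ionotropic glutamate receptors 9 of 11 were higher (median 0.069, 0.058 without Control 6), with a median of 0.45 in cohort 7a and -0.014 in cohort 7b (5 of 11 higher). GRIN1, the obligatory NMDA receptor subunit, averaged 459.9 ± 169 TPM in controls and 586 ± 196 TPM in LD animals (exact p = 0.209), and the AMPA subunit GRIA1 138 ± 40.5 TPM in controls and 181 ± 61.4 TPM in LD animals (exact p = 0.1897), with 4 LD animals above every control. Metabotropic receptors had a median of 0.18 (0.044 without Control 6, 0.60 in cohort 7a and 0.17 in cohort 7b), with GRM4 at 30.1 ± 16.2 TPM in controls and 35.1 ± 11.5 TPM in LD animals and GRM7 at 15.9 ± 5.65 TPM in controls and 19.5 ± 6.98 TPM in LD animals. GABA-A subunits had 10 of 13 higher (median 0.15, 0.076 without Control 6). Their median was 0.38 in cohort 7a, -0.034 in cohort 7b (6 of 13 higher) and -0.013 without the LD animals of cohort 4. GABRD, the delta subunit of extrasynaptic receptors, averaged 154 ± 83.6 TPM in controls and 191 ± 53.97 TPM in LD animals, a difference of 0.61 that was 0.19 without Control 6, and GABRA5 averaged 358 ± 147 TPM in controls and 425 ± 81.95 TPM in LD animals (0.47 and 0.076). The genes of GABA synthesis and transport were split 4 to 4 (median 0.013), but 7 of 8 were higher in cohort 7a (median 0.30) and 8 of 8 lower in cohort 7b (median -0.39). Their summed level was 1153 TPM in Control 8 against 2030 TPM in Control 7, the controls of cohort 7a. In cohort 7b it was 1068 TPM in LD 5, against 1963 TPM in LD 3 and 1559 TPM in LD 4. For ionotropic receptors Control 8 (605 TPM) and LD 5 (622 TPM) were lowest in their groups. For GABA-A subunits LD 5 (653 TPM) was the lowest LD animal, and only Control 6 (454 TPM) lay below Control 8 (587 TPM). Whether these animals account for the cohort medians was not tested. The GABA transporter SLC6A11 averaged 93.00 ± 103 TPM in controls and 47.2 ± 13.6 TPM in LD animals, with Control 6 at 331 TPM and a difference of -0.49 that was -0.16 without it, and ABAT, which degrades GABA, 294 ± 40.4 TPM in controls and 268 ± 28.4 TPM in LD animals.

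Potassium channel genes had 28 of 38 higher (median 0.14, 0.028 without Control 6, 0.24 and 0.25 in cohorts 7a and 7b), led by KCNK4 at 11.4 ± 3.16 TPM in controls and 13.2 ± 1.23 TPM in LD animals and KCNJ9, a GIRK channel subunit, at 64.4 ± 17.9 TPM in controls and 76.96 ± 16.1 TPM in LD animals. Genes of synaptic vesicles had 33 of 42 higher, with a median of 0.10 (0.091 without Control 6, 0.32 in cohort 7a and 0.054 in cohort 7b). Leaving out 1 animal moved this median from 0.018 (without Control 8) to 0.25 (without LD 5). Without Control 6, 1 of the 42 was lower at an unadjusted p under 0.05 in limma (background 0.902%). Without the 3 animals least like the rest 2 were lower (1.37%), and 0 were higher in either fit. SYN2 (synapsin 2), which tethers vesicles, ranged from 86.3 to 218 TPM in the controls (median 184) and from 93.5 to 356 TPM in the LD animals (median 250.2), and 6 LD animals were above every control, while LD 5 was the lowest LD animal (difference 0.48 ± 0.26 (SE), exact p = 0.09899). UNC13C, a priming factor, averaged 60.1 ± 20.6 TPM in controls and 43.7 ± 16.3 TPM in LD animals (exact p = 0.106, log2 difference -0.47, and -0.60 without Control 6), and its difference was -0.58 in cohort 7a and 0.32 in cohort 7b.

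Immediate early genes, which mark recent neuronal activity, had 14 of 17 higher and a median of 0.30, with 0 at an unadjusted p under 0.05. The median was 0.090 without Control 6. NR4A1 averaged 29.5 ± 17.3 TPM in controls and 40.95 ± 19.99 TPM in LD animals (exact p = 0.158), JUN 37.3 ± 11.3 TPM in controls and 51.5 ± 17.2 TPM in LD animals, FOS 14.3 ± 6.66 TPM in controls and 17.9 ± 5.897 TPM in LD animals, and BTG2, on the other side, 20.1 ± 5.995 TPM in controls and 15.6 ± 2.91 TPM in LD animals (exact p = 0.102). Clock genes had a median of 0.044 (-0.025 without Control 6), with ARNTL (BMAL1) at 28.3 ± 7.49 TPM in controls and 33.5 ± 6.34 TPM in LD animals and NFIL3 at 12.6 ± 5.201 TPM in controls and 15.5 ± 3.54 TPM in LD animals. Genes of the glucocorticoid and CRF response were split 8 to 8 (median -0.0087, 0.037 after TMM rescaling), and its leading members DUSP1, a MAP kinase phosphatase, and DDIT4, an mTOR inhibitor, averaged 22.2 ± 7.92 TPM in controls and 18.2 ± 4.33 TPM in LD animals and 38.3 ± 12.1 TPM in controls and 32.8 ± 8.202 TPM in LD animals.

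Genes that metabolise ethanol and its products averaged lower in 11 of 15 tested (median -0.17, -0.12 without Control 6, -0.20 in cohort 7a and -0.22 in cohort 7b). ALDH2, the mitochondrial enzyme that clears acetaldehyde, ran from 315 to 865 TPM in controls (median 435) and from 304 to 542 TPM in LD animals (median 346), a difference of -0.37 ± 0.18 (SE). ALDH3A2, a fatty aldehyde dehydrogenase, averaged 44.5 ± 7.004 TPM in controls and 37.2 ± 4.68 TPM in LD animals (exact p = 0.0322). In limma it was the only member at an unadjusted p under 0.05 (background 1.53%), and 0 were without Control 6. ALDH6A1, of valine breakdown, averaged 68.2 ± 9.22 TPM in controls and 57.6 ± 6.49 TPM in LD animals (exact p = 0.02797). Catalase (CAT) averaged 28.01 ± 9.07 TPM in controls and 23.4 ± 6.79 TPM in LD animals, and ACSS2, which turns acetate into acetyl-CoA, 35.6 ± 9.14 TPM in controls and 36.6 ± 4.05 TPM in LD animals.

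The lists of general cell functions had medians close to that of all genes, and 0 of their tested members had an unadjusted p under 0.05 in limma. Cytosolic ribosomal protein genes had a median of -0.0073 (47 of 79 lower, 0.041 after TMM rescaling), but 76 of 79 were lower in cohort 7a (median -0.25) and 75 of 79 were higher in cohort 7b (median 0.15). Their summed level ran from 76169 to 153843 TPM in controls and from 80622 to 167316 TPM in LD animals, highest in Control 8 and LD 5. Mitochondrial ribosomal proteins had a median of 0.012, complex I 0.023, complexes II to V 0.017, proteasome subunits 0.0053, initiation factors 0.019 and heat shock proteins 0.035. Of their named members SDHB, of complex II, averaged 331 ± 28.6 TPM in controls and 367 ± 27.5 TPM in LD animals (exact p = 0.0225), NDUFA8 376 ± 20.6 TPM in controls and 402 ± 27.5 TPM in LD animals and EIF3D 140.2 ± 14.7 TPM in controls and 153 ± 9.204 TPM in LD animals. The small heat shock protein CRYAB averaged 1203 ± 836 TPM in controls and 775 ± 373 TPM in LD animals, the co-chaperone BAG3 16.8 ± 7.38 TPM in controls and 12.4 ± 1.75 TPM in LD animals, and PSMB9, the interferon-induced proteasome subunit, 13.7 ± 5.35 TPM in controls and 10.3 ± 2.74 TPM in LD animals.

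**Figure D5:**
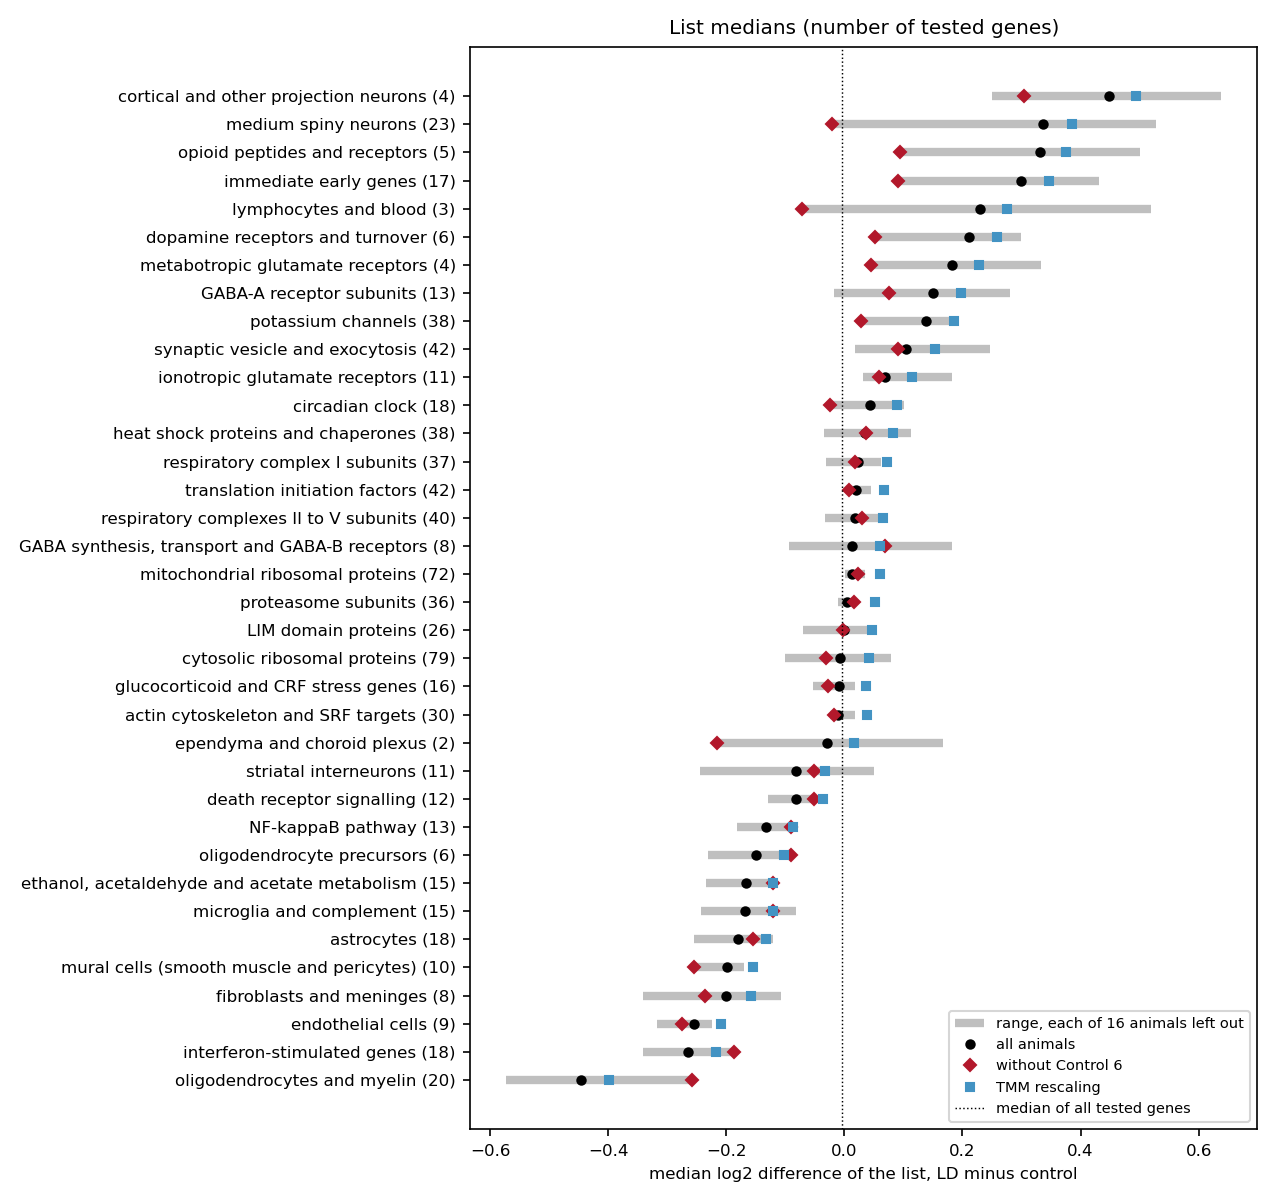
Median log2 difference (x axis, LD minus control) of the tested genes of each list, with their number in parentheses. Black points use all animals, red diamonds leave out Control 6, blue squares use TMM rescaling, grey bars span the medians with each of the 16 animals left out, and the dotted line is the median of all genes (-0.0045); the medium spiny neuron list goes from 0.34 to -0.021 without Control 6, and the endothelial list from -0.26 to -0.28.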

How the data were processed

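Polyadenylated RNA of the NAcc core had been sequenced once per animal. The authors aligned reads to the MacaM assembly with STAR 2.5.2b (unique alignments, at most 2 mismatches), counted genes with HTSeq 0.6.1p1 and used DESeq2 for their own tests. The deposited table, named for normalized counts, holds TPM computed by the authors. Columns sum to between 999998 and 1000000, and TPM keep no depth, so no counting error is given. How TPM were made, and with which gene lengths, is not given in the sources used here. Strand and pairing of the libraries are described differently in the sources. The table holds 17208 symbols, 27 of them changed to dates.

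Groups and cohorts come from the labels. Log2(TPM + 1) of 9197 genes averaging 10 TPM or more was fitted with limma 3.58.1 (R 4.3.3; trend, 3 groups, 24 animals, Benjamini-Hochberg), and an interaction with cohort in cohorts 7a and 7b. For genes of 1 to 10 TPM the model was refitted over 13637 genes. The fits were tested on simulated data. Results for some genes are not reported here. Named genes are the 12 higher and 12 lower with the smallest p, the 2 of smallest p in each of 36 lists, the most abundant marker of each of 12 cell type lists and 3 higher and 3 lower weakly expressed genes, besides members described within lists, which were chosen after their values were seen. Members and lists were chosen with earlier results of these data known. Exact permutations and medians were computed in Python 3.11.15 (numpy 2.4.6, pandas 2.3.3), plots in matplotlib 3.10.9. Alternatives were pseudocounts of 0.1 and 8, filters of 1 and 100 TPM or none, TMM (trimming 30% of M and 5% of A) and median centring, 16 animals alone, cohort, array weights and each animal left out. Chosen after seeing the data were 3 animals left out together, marker covariates and TMM with fewer animals.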

Additional observations from a re-analysis of the deposited data

Results flagged for a closer look

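In 270 groups of 8 animals (named genes reported here in each group and list scores), 34 had 1 animal separated from the others by a gap above Dixon's 95% critical share of the group's range. Chance alone gives about 1 in 20 groups, and the groups are not independent, since a library that stands apart does so in many genes. Their causes were not tested.

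Control 6 accounted for 8. It was high in GSN (260.3 TPM, others 91.3 to 165), MSN (91.6, others 67.6 to 75.4) and TLN1 (75.6, others 39.9 to 55.7), all of the actin cytoskeleton. It was also high in the oligodendrocyte gene OLIG1 (310.1, others 95.5 to 169), in CALB2 (309, others 27.9 to 86.6) and SLC6A11 (331, others 33.00 to 148). It was low in CSGALNACT1 (12.1, others 25.9 to 38.00) and GABRA5 (44.98, others 284 to 488).

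Control 2 was high in RTN4RL2 (31.1 TPM), OXSM (24.3), FKBP1B (125), CRIP1 (51.5, others 16.3 to 32.98) and SLC17A7 (348, others 0.897 to 119). Control 8 was high in CDH1 (2.905) and in the mean centred log2 score of respiratory complexes II to V (0.26), and Control 3 was low in ALDH6A1 (48.2).

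Among LD animals, LD 5, with the highest intake of 2.07 g/kg, was low in ENG (10.2 TPM, others 19.2 to 24.01), high in RPL26L1 (181), and low in the centred log2 scores of LIM domain proteins (-0.20), ionotropic glutamate receptors (-0.69) and GABA-A subunits (-0.70). LD 4 was the LD animal nearest to controls in TNFSF10 (24.5, others 10.5 to 14.1) and GSN (127), and it was high in SLC17A7 (722) and NPAS4 (6.14). LD 1 was high in H3F3C (42.5), NR4A1 (84.1) and EPHA2 (3.14), and LD 2 in GJB6 (111), CALB2 (92.2) and SLC6A11 (75.9). LD 6 was high in CRIP1 (23.2) and MGP (35.2), and LD 7 in GPR17 (36.2).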

How the results depend on the processing

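No gene passed an adjusted p under 0.05 in limma for LD against control under any alternative tried, nor in the interaction of cohorts 7a and 7b; the smallest adjusted p was 0.0747 (array weights). Counts at an unadjusted p under 0.05 (164) moved to 387 with a filter of 1 TPM, 617 with none and 21 with 100 TPM, where the number of genes tested changes, to 269 in cohorts 7a and 7b alone, 105 without the cohort 4 animals and 967 with array weights. With 1 animal left out they ran from 89 (without LD 7) to 326 (without LD 4), and were 100 without Control 6, 108 without LD 8 and 300 without LD 5. Genes without overlap of the groups (0) numbered 3 with no filter, 1 with TMM, 22 in cohorts 7a and 7b alone, 1 without cohort 4 and 0 to 5 with 1 animal left out (5 without LD 4). Interaction counts at an unadjusted p under 0.05 (175) were 173 and 178 with pseudocounts of 0.1 and 8, 312 with a filter of 1 TPM and 149 with TMM. Of the alternatives chosen after seeing the data, 3 animals left out gave 163 (LD against control), marker covariates 144, TMM without Control 6 142 and TMM in cohorts 7a and 7b 215. The causes were not tested, apart from the number of genes or animals.

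No named gene passed an adjusted p under 0.05 under any alternative. Of 3252 alternative values for the 104 genes named by rule 3236 kept direction. List members described beside them were followed without Control 6 only, where DRD1 and ADORA2A changed sign. The 16 changed signs among genes named by rule were RSPH1 in cohorts 7a and 7b (0.018, with TMM 0.062), BCAN (0.0066 with array weights, 0.0034 without Control 8 in a range of -0.11 to 0.0034 with 1 animal left out, 0.019 without Control 6 with TMM, 0.091 without 3 animals), TRH (0.027) and SLC17A7 (-0.20) with array weights, PENK (-0.016 without Control 6, up to 0.58 with 1 other animal left out, -0.24 without 3 animals), LHX2 (-0.027 without Control 6, up to 0.44), AQP1 (-0.081 without Control 6, up to 0.44, -0.039 with TMM too, -0.24 with marker covariates), VIM (0.0044 without Control 8, down to -0.26) and CD3E (-0.013) without 3 animals. Of 1145 list medians under alternatives 101 changed sign, in 19 of 36 lists, among them medium spiny neurons and GABA-A subunits. No paired analysis was possible because the labels give no replicate numbers shared between groups. TPM keep no depth, so the counting error of weakly expressed genes is unknown.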

Other observations

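Among weakly expressed genes, with a mean between 1 and 10 TPM, the 3 lower and 3 higher with the smallest p are described first. They were chosen by this p. How many genes of this range had most LD animals outside the controls was not counted. In the fit over 13637 genes with at least 1 TPM no adjusted p was under 0.05 in limma. An unadjusted p was under 0.05 for 387 genes (2.84%), a count that includes genes of 10 TPM or more. PTGES, the inducible enzyme that makes prostaglandin E2, ranged from 2.85 to 5.24 TPM in the controls (median 4.39) and from 0.841 to 3.397 TPM in the LD animals (median 1.999). In 7 of 8 LD animals it was below every control, and the difference was -0.82 ± 0.18 (SE) (exact permutation p = 0.000311), -1.01 in cohort 7a and -0.71 in cohort 7b. The kinase gene STK33 averaged 4.17 ± 0.719 TPM in controls and 2.51 ± 0.688 TPM in LD animals (exact permutation p = 0.000777), again with 7 LD animals below every control. OAS2, an interferon-induced sensor of double-stranded RNA, averaged 2.28 ± 0.4502 TPM in controls and 1.27 ± 0.397 TPM in LD animals, with 7 LD animals below every control (exact permutation p = 0.000777). HD animals averaged 3.47 ± 1.06 TPM of PTGES, 2.95 ± 0.948 of STK33 and 1.66 ± 0.697 of OAS2.

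On the higher side, NPAS4, an activity-induced transcription factor of neurons, averaged 1.44 ± 0.4997 TPM in controls and 2.92 ± 1.48 TPM in LD animals (difference 0.63 ± 0.20 (SE), exact permutation p = 0.00544), 0.64 without Control 6. The ephrin receptor EPHA2 averaged 1.15 ± 0.302 TPM in controls and 1.899 ± 0.635 TPM in LD animals (exact permutation p = 0.00559), with 5 LD animals above every control. CDH1 (E-cadherin) averaged 0.846 ± 0.888 TPM in controls and 1.73 ± 0.727 TPM in LD animals (exact permutation p = 0.0236). Read numbers at such levels are not known from TPM.

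Some weakly expressed members of the lists are given here, picked after their values were seen. Of 20 measured mural and 19 measured endothelial genes, 10 and 9 had been tested. The directions of the untested members were not counted, so these examples add no support to the lists. MLKL, the effector of necroptosis, averaged 2.23 ± 0.557 TPM in controls and 1.36 ± 0.4601 TPM in LD animals (difference -0.46 ± 0.12, SE), beside TNFSF10 in the death receptor list. MYH11, the smooth muscle myosin heavy chain, averaged 2.29 ± 0.781 TPM in controls and 1.55 ± 1.01 TPM in LD animals, ACTA2, smooth muscle actin, 8.68 ± 2.66 TPM in controls and 7.67 ± 4.65 TPM in LD animals, and desmin (DES) 2.298 ± 1.64 TPM in controls and 1.17 ± 0.504 TPM in LD animals. The barrier efflux pump ABCB1 averaged 8.34 ± 1.43 TPM in controls and 6.104 ± 0.811 TPM in LD animals (difference -0.39 ± 0.14, SE). CDH5, the cadherin of endothelial junctions, went the other way at 6.41 ± 0.855 TPM in controls and 6.904 ± 0.754 TPM in LD animals.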
